A study of Equus asinus with 12 samples.

Results

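The genes that encode collagen chains were described in skeletal muscle of Dezhou donkeys (Equus asinus). Members were all genes whose symbol consists of COL, a type number, A and a chain number, and where several loci carried one symbol the locus with the highest mean FPKM (fragments per kilobase of transcript, scaled to the mapped fragments of the library) over the 12 libraries was used. This gave 42 genes, from 49 of 27084 loci in the expression table. Of these, 19 reached 1 FPKM in at least 3 libraries and were tested, and 23 did not. The 4 groups of 3 libraries each were Wutou gluteal muscle, Wutou longissimus dorsi, Sanfen gluteal muscle and Sanfen longissimus dorsi, where Wutou and Sanfen are strains of the Dezhou breed. All animals were 24 months old, no treatment was given, and the 12 libraries came from 6 donkeys. Which donkey gave which library is not in the labels, and p-values therefore reflect only how far these libraries spread.

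Collagens are trimers of chains wound into a triple helix, and they carry most of the tensile load of connective tissue. Types I, III and V form the banded fibrils of the endomysium, perimysium and epimysium around muscle fibres. Type IV forms the sheet of the basement membrane that wraps each fibre and capillary, and type VI forms beaded filaments between that sheet and the fibrils. Fibril-associated types bind to fibril surfaces, and several are known from tendon, cartilage and the myotendinous junction, where muscle fibres attach to tendon. No protein or promoter sequence was used here.

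The libraries held 23144 to 23874 loci above 0 FPKM, with summed FPKM of 214564 to 319767. The deposited values give no counts, so the read depth behind each value is unknown and no counting interval can be given. A set of 10 muscle fibre marker genes summed to 24656 to 28167 FPKM in Wutou gluteal, 29508 to 35302 in Wutou longissimus, 27186 to 35275 in Sanfen gluteal and 25508 to 30907 in Sanfen longissimus libraries, and all 10 were above the filter, as the labelled tissue requires. The 9 fibroblast markers, for the main collagen-making cells of muscle, were also all above it, with sums of 155 to 216 FPKM in Wutou gluteal, 161 to 242 in Wutou longissimus, 205 to 253 in Sanfen gluteal and 184 to 291 in Sanfen longissimus libraries.

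Muscle collagen RNA came mostly from types I, III, IV, VI and XV and from a locus named COL21A1. That COL21A1 locus holds no reference transcript, and the locus that does averaged 0.402 FPKM. Of the 42 genes, 9 averaged at least 10 FPKM, 8 averaged from 1 to 10 FPKM and 25 averaged below 1 FPKM, of which 8 were below 0.1 FPKM. In 18 genes no library reached 1 FPKM. Over the 42 genes the summed level ranged from 159 FPKM in Wutou gluteal replicate 3 to 320 FPKM in Wutou gluteal replicate 2, which is 0.0598% to 0.116% of all FPKM across the 12 libraries. By class, the 11 fibrillar chains made up 30.2% to 49.5% of the collagen sum, the 4 type VI chains 23.0% to 29.5%, the 6 type IV chains 10.0% to 19.4%, and the 10 fibril-associated chains 7.32% to 18.5%. The fibril-associated share includes the COL21A1 locus without a reference transcript.

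**Figure D1:**
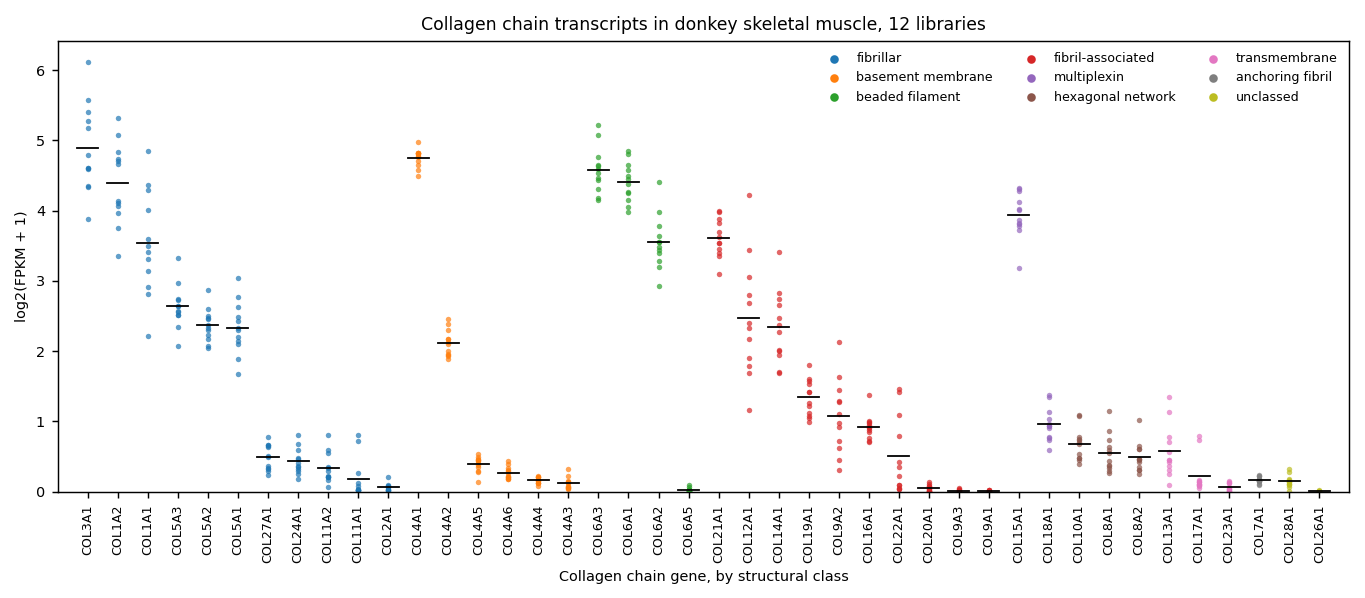
Level of each of the 42 collagen chain genes as log2(FPKM + 1), grouped by structural class along the x axis, with 1 point for each of the 12 libraries. COL3A1, COL4A1, COL6A3, COL1A2 and COL6A1 lie at the top, and 25 genes average below 1 FPKM.

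Among the fibrillar chains, COL3A1, the single chain of type III collagen that gives compliant tissue its fine fibrils, had the highest mean of all members, 31.5 FPKM. It stood at 35.2, 68.2 and 23.4 FPKM in Wutou gluteal, 19.2, 37.9 and 41.3 in Wutou longissimus, 23.1, 23.4 and 26.7 in Sanfen gluteal and 46.8, 19.5 and 13.7 in Sanfen longissimus libraries. The groups overlapped, and the highest library held 4.96 times the level of the lowest. COL1A2, the second chain of type I collagen, the main load-bearing fibril, stood at 25.2, 39.1 and 9.20 FPKM in Wutou gluteal, 12.5, 16.2 and 24.3 in Wutou longissimus, 32.8, 16.6 and 14.7 in Sanfen gluteal and 27.6, 15.8 and 25.7 in Sanfen longissimus libraries. COL1A1, its partner, stood at 19.5, 27.8 and 3.64 FPKM in Wutou gluteal, 6.53, 8.92 and 11.0 in Wutou longissimus, 15.1, 7.78 and 5.99 in Sanfen gluteal and 10.3, 9.64 and 18.7 in Sanfen longissimus libraries. Both type I chains had their highest and lowest libraries within Wutou gluteal muscle, replicates 2 and 3, so the spread inside that group was as wide as the spread over all 12 libraries. A second locus named COL1A1, without a reference transcript, averaged 1.42 FPKM and was not added.

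The type V chains, which set the diameter of type I fibrils, were lower and less variable. COL5A3 stood at 5.22, 8.99 and 4.73 FPKM in Wutou gluteal, 4.96, 6.84 and 5.62 in Wutou longissimus, 4.73, 5.70 and 4.88 in Sanfen gluteal and 4.07, 5.21 and 3.21 in Sanfen longissimus libraries. COL5A2 stood at 4.02, 6.31 and 3.69 FPKM in Wutou gluteal, 3.11, 4.49 and 5.06 in Wutou longissimus, 4.67, 3.94 and 4.18 in Sanfen gluteal and 4.55, 3.49 and 3.21 in Sanfen longissimus libraries. COL5A1 stood at 5.81, 7.19 and 2.70 FPKM in Wutou gluteal, 3.28, 5.21 and 4.596 in Wutou longissimus, 4.39, 3.42 and 3.58 in Sanfen gluteal and 3.93, 4.04 and 2.18 in Sanfen longissimus libraries. The groups overlapped for all 3 chains. The other 5 fibrillar chains were not tested, among them COL2A1, the chain of cartilage fibrils, at a mean of 0.0423 FPKM, and COL27A1, COL24A1 and COL11A2 at means of 0.420, 0.358 and 0.274 FPKM.

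In the basement membrane, COL4A1, which forms the common type IV trimer with COL4A2, was the steadiest of the 19 tested members. It stood at 27.1, 27.2 and 27.3 FPKM in Wutou gluteal, 21.5, 30.4 and 22.9 in Wutou longissimus, 27.3, 26.3 and 25.2 in Sanfen gluteal and 26.2, 27.2 and 24.2 in Sanfen longissimus libraries. Its coefficient of variation over the 12 libraries was 8.99%, and its highest library held 1.41 times the level of its lowest. COL4A2 stood at 3.91, 4.24 and 2.87 FPKM in Wutou gluteal, 2.85, 3.53 and 3.52 in Wutou longissimus, 4.50, 2.80 and 3.01 in Sanfen gluteal and 3.28, 3.36 and 2.69 in Sanfen longissimus libraries. The other type IV chains, known from kidney, lung and epithelia, averaged 0.312 FPKM (COL4A5), 0.206 FPKM (COL4A6), 0.118 FPKM (COL4A4) and 0.0868 FPKM (COL4A3), and none was tested. COL4A5 stood at 0.210, 0.294 and 0.442 FPKM in Wutou gluteal, 0.224, 0.413 and 0.322 in Wutou longissimus, 0.277, 0.368 and 0.378 in Sanfen gluteal and 0.0942, 0.358 and 0.363 in Sanfen longissimus libraries. COL4A6 stood at 0.160, 0.221 and 0.130 FPKM in Wutou gluteal, 0.154, 0.202 and 0.158 in Wutou longissimus, 0.265, 0.355 and 0.240 in Sanfen gluteal and 0.129, 0.313 and 0.148 in Sanfen longissimus libraries.

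The multiplexins are collagens with interrupted helices that carry sugar chains. COL15A1, found in the zone outside the muscle basement membrane, stood at 13.1, 18.4 and 15.3 FPKM in Wutou gluteal, 12.2, 19.1 and 18.8 in Wutou longissimus, 16.5, 12.8 and 13.1 in Sanfen gluteal and 13.6, 15.2 and 8.09 in Sanfen longissimus libraries. COL18A1, the other multiplexin and the source of endostatin, stood at 0.904, 1.55 and 0.706 FPKM in Wutou gluteal, 0.505, 0.912 and 1.06 in Wutou longissimus, 1.19, 0.873 and 1.60 in Sanfen gluteal and 0.669, 0.954 and 0.695 in Sanfen longissimus libraries. It passed the filter with 4 libraries at or above 1 FPKM, and the groups of both multiplexins overlapped.

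The type VI chains, whose loss causes congenital muscular dystrophy in humans, ranked with the most abundant members. COL6A3, the long chain, stood at 22.3, 36.3 and 18.7 FPKM in Wutou gluteal, 16.7, 24.1 and 23.9 in Wutou longissimus, 26.2, 23.1 and 20.7 in Sanfen gluteal and 32.7, 21.1 and 17.1 in Sanfen longissimus libraries. COL6A1 stood at 22.9, 27.0 and 15.6 FPKM in Wutou gluteal, 20.8, 24.0 and 27.7 in Wutou longissimus, 18.3, 14.8 and 19.8 in Sanfen gluteal and 18.1, 21.6 and 16.8 in Sanfen longissimus libraries. COL6A2 stood at 14.8, 20.3 and 8.19 FPKM in Wutou gluteal, 9.57, 11.4 and 12.8 in Wutou longissimus, 10.7, 8.78 and 9.87 in Sanfen gluteal and 10.7, 10.2 and 6.57 in Sanfen longissimus libraries. The groups overlapped for COL6A3 and COL6A2. For COL6A1 they overlapped within each muscle and within each strain, while every Wutou longissimus library lay above every Sanfen gluteal library. These groups differ in both strain and muscle, and this pair was not among the 7 comparisons. The share of all loci without overlap between them was not taken, so this order is no result about COL6A1. A second COL6A2 locus averaged 4.19 FPKM and was not added, and COL6A5 averaged 0.0184 FPKM.

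**Figure D2:**
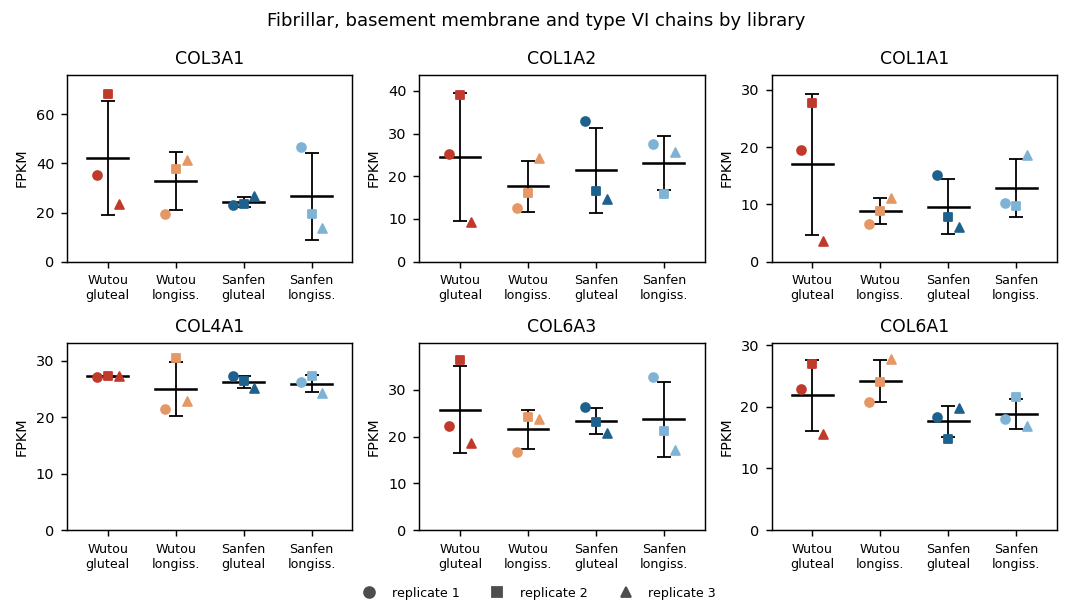
FPKM of the most abundant collagen chain genes in each library (points), with the mean and SD of the 3 libraries of each group, for Wutou gluteal, Wutou longissimus, Sanfen gluteal and Sanfen longissimus muscle. COL4A1 stays between 21.5 and 30.4 FPKM, while COL3A1 runs between 13.7 and 68.2 FPKM with all groups overlapping.

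The fibril-associated chains differed most among themselves. COL21A1, a chain first described in blood vessel walls, averaged 11.5 FPKM and stood at 14.98, 9.50 and 11.98 FPKM in Wutou gluteal, 13.2, 10.7 and 9.26 in Wutou longissimus, 14.8, 10.6 and 11.4 in Sanfen gluteal and 9.95, 13.7 and 7.52 in Sanfen longissimus libraries. The locus used for it holds no reference transcript, and the locus with the reference transcript averaged 0.402 FPKM, so its level depends on which locus is read. COL12A1, a chain of dense connective tissue and tendon that bridges fibrils, stood at 4.03, 4.25 and 2.74 FPKM in Wutou gluteal, 2.44, 1.23 and 2.21 in Wutou longissimus, 17.8, 5.42 and 3.52 in Sanfen gluteal and 7.29, 5.94 and 9.87 in Sanfen longissimus libraries. Its highest library held 14.4 times the level of its lowest, and 5 of 6 Sanfen libraries lay above every Wutou library. COL14A1, a relative of COL12A1, stood at 4.16, 6.13 and 2.24 FPKM in Wutou gluteal, 3.05, 2.22 and 4.52 in Wutou longissimus, 5.70, 5.31 and 3.81 in Sanfen gluteal and 9.67, 3.01 and 2.85 in Sanfen longissimus libraries. COL19A1 stood at 1.18, 1.06 and 1.90 FPKM in Wutou gluteal, 0.979, 1.67 and 1.398 in Wutou longissimus, 1.99, 1.67 and 2.05 in Sanfen gluteal and 1.11, 1.33 and 2.49 in Sanfen longissimus libraries. This was again a locus with no reference transcript, with a mean of 1.57 FPKM against 0.192 FPKM for the reference locus. COL9A2, a chain of the type IX collagen that coats cartilage fibrils, stood at 0.888, 0.638 and 0.237 FPKM in Wutou gluteal, 1.71, 3.36 and 0.965 in Wutou longissimus, 1.46, 0.530 and 0.365 in Sanfen gluteal and 1.15, 2.08 and 1.42 in Sanfen longissimus libraries. Its partner chains COL9A1 and COL9A3 averaged 0.00481 and 0.00864 FPKM.

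The remaining classes were low. COL13A1, a transmembrane collagen of the neuromuscular junction, stood at 0.484, 0.285 and 0.187 FPKM in Wutou gluteal, 0.711, 0.371 and 0.364 in Wutou longissimus, 0.334, 1.19 and 0.233 in Sanfen gluteal and 0.0638, 1.54 and 0.627 in Sanfen longissimus libraries. Replicate 2 was the highest of both Sanfen groups. COL17A1, a transmembrane collagen of skin hemidesmosomes, stood at 0.661 FPKM in Wutou longissimus replicate 2 and 0.724 FPKM in Sanfen longissimus replicate 2, against 0.0347 to 0.118 FPKM in the other libraries. The hexagonal network chains COL10A1, COL8A1 and COL8A2 averaged 0.617, 0.490 and 0.419 FPKM. COL10A1, known from growth plate cartilage, stood at 1.12, 0.311 and 1.11 FPKM in Wutou gluteal, 0.656, 0.362 and 0.390 in Wutou longissimus, 0.672, 0.636 and 0.606 in Sanfen gluteal and 0.387, 0.442 and 0.714 in Sanfen longissimus libraries. COL8A1, known from vessel walls, stood at 0.466, 1.22 and 0.204 FPKM in Wutou gluteal, 0.291, 0.227 and 0.354 in Wutou longissimus, 0.550, 0.670 and 0.301 in Sanfen gluteal and 0.818, 0.507 and 0.267 in Sanfen longissimus libraries. In these 2 genes too the groups overlapped. COL7A1, the anchoring fibril chain of skin, averaged 0.122 FPKM. COL28A1, known from peripheral nerve, stood at 0.0733, 0.00829 and 0.0966 FPKM in Wutou gluteal, 0.0662, 0.118 and 0.217 in Wutou longissimus, 0.130, 0.106 and 0.255 in Sanfen gluteal and 0.103, 0.0738 and 0.0420 in Sanfen longissimus libraries. COL26A1 was listed at 0 in 7 libraries and reached 0.0109 FPKM at most. Just outside the filter were COL16A1, COL10A1 and COL13A1 with 2 libraries at or above 1 FPKM, and just inside it was COL22A1 with 3.

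Several chains shared their highest or lowest library. Wutou gluteal replicate 2 was the highest library for 8 of the 19 tested members, including all 6 tested fibrillar chains, and Sanfen longissimus replicate 3 was the lowest for 7. Wutou gluteal replicate 3 was the lowest library for COL1A1, COL1A2, COL9A2 and COL22A1. The number of the 19 members above their own mean ran from 3 in Wutou longissimus replicate 1 to 15 in Sanfen gluteal replicate 1. These counts were not taken over all loci, and a lean of the whole library was not tested. Median coefficients of variation were 13.2% for the 2 tested type IV chains, 25.0% for the 3 type VI chains, 37.1% for the 6 fibrillar chains and 59.5% for the 6 fibril-associated chains.

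**Figure D3:**
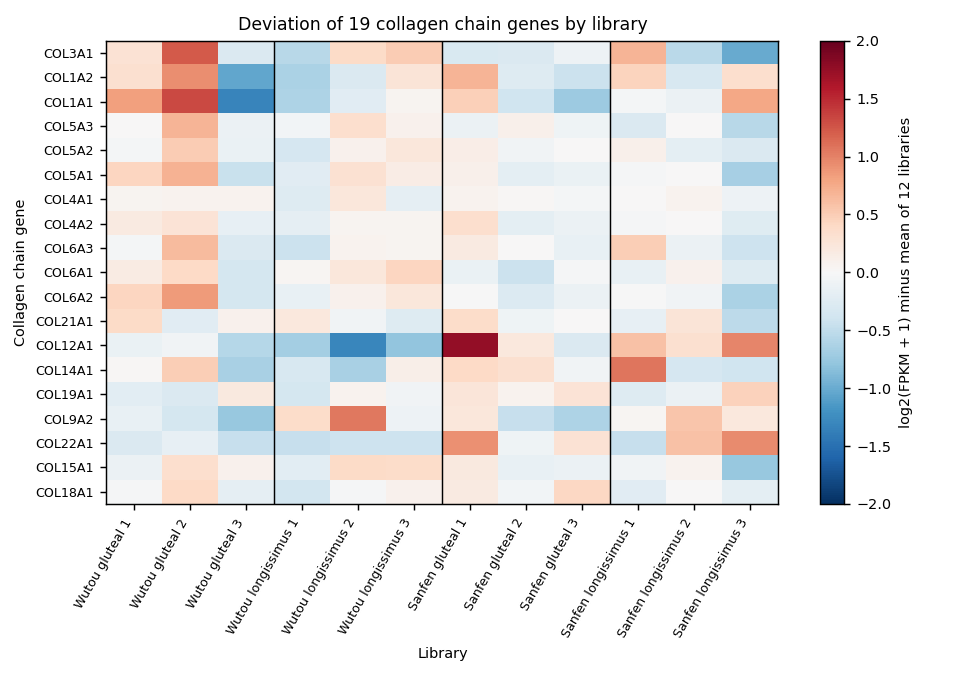
Deviation of each of the 19 tested collagen genes (rows) from its own mean over 12 libraries on the log2(FPKM + 1) scale, for each library (columns). The fibrillar rows are highest in Wutou gluteal replicate 2, and COL4A1 stays closest to 0.

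Ratios of FPKM, which is a level per transcript length, differed between pairs of chains. Each symbol was read from 1 locus, so the second loci named COL6A2 (mean 4.19 FPKM) and COL1A1 (mean 1.42 FPKM) were left out. COL1A1 to COL1A2 ran from 0.37 to 0.78 with a median of 0.49, although the type I trimer holds more COL1A1 than COL1A2 chains. COL4A1 to COL4A2 ran from 6.07 to 9.51 (median 8.05), and the COL4A1 locus includes an assembled transcript beside the reference one. COL6A1 to COL6A2 ran from 1.33 to 2.56 (median 1.96), and COL6A3 to COL6A1 lay on both sides of 1, from 0.80 to 1.81 (median 1.03). The ratio of type III to type I, read as COL3A1 to COL1A1, ran more widely, from 0.74 in Sanfen longissimus replicate 3 to 6.42 in Wutou gluteal replicate 3 (median 2.97). In the RefSeq gene table of assembly EquAss-T2T_v2, 41 of the 42 symbols were found and 6 pairs of members were neighbours, among them COL4A1 with COL4A2, COL6A1 with COL6A2 and COL3A1 with COL5A2.

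The first comparison asked whether the strains differ. Averaged over both muscles, no collagen passed an adjusted p of 0.05 (0 of 19, against 0% of 12408 loci) in limma's moderated test with Benjamini-Hochberg adjustment, and 2 of 19 had an unadjusted p under 0.05, against 8.26% of all loci. These were COL12A1 and COL22A1, both with lower levels in Wutou. COL22A1 passed the filter through Sanfen libraries alone, so its direction was fixed and only COL12A1 counts here. The log2 difference was above 0 for 11 of 19 members and 35.3% of all loci, with medians of 0.02 over the members and -0.07 over all loci. The lean of all loci depended on scaling. Their median was 0.012 under median-of-ratios rescaling and 0.0034 under quantile normalization. COL12A1 differed by -1.19 on the log2(FPKM + 1) scale (SE 0.30, 95% interval -1.84 to -0.53, limma adjusted p = 0.455). This scale understates the change of genes near 1 FPKM. Among the 9 chains that averaged at least 10 FPKM, 4 had positive estimates larger than their errors, at 0.52 (SE 0.33) for COL3A1, 0.36 (SE 0.20) for COL6A2, 0.31 (SE 0.16) for COL6A1 and 0.28 (SE 0.18) for COL15A1. The other 5 had estimates smaller than their errors, at 0.04 (SE 0.17) for COL21A1, 0.01 (SE 0.41) for COL1A1, -0.00 (SE 0.20) for COL6A3, -0.01 (SE 0.12) for COL4A1 and -0.15 (SE 0.33) for COL1A2. None of the 9 passed, with limma adjusted p from 0.643 to 0.996. In bulk muscle, fewer cells of a type and less RNA per cell cannot be told apart.

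Within longissimus muscle, Wutou against Sanfen, 0 of 19 members passed (0.0161% of loci did) and 2 had an unadjusted p under 0.05, against 5.52% of loci. These were COL12A1 and COL22A1, and the filter limit of COL22A1 holds here too. COL12A1 averaged 1.96 ± 0.644 FPKM in Wutou and 7.70 ± 1.99 FPKM in Sanfen longissimus libraries (SD, n = 3 each), without overlap. Its log2 difference was -1.56 (SE 0.42, 95% interval -2.48 to -0.63, limma adjusted p = 0.839). It was the 1 member lower without overlap, against 7.92% of loci, and 0 members were higher without overlap, against 3.88%. The log2 difference was above 0 for 11 of 19 members and 40.7% of loci. COL5A3 differed by 0.41 (SE 0.23, limma adjusted p = 0.854).

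Within gluteal muscle, Wutou against Sanfen, 0 of 19 members passed (0.00806% of loci did) and 0 had an unadjusted p under 0.05, against 4.86% of loci. COL12A1 averaged 3.67 ± 0.816 FPKM in Wutou and 8.90 ± 7.73 FPKM in Sanfen gluteal libraries (SD, n = 3 each), and the groups overlapped. Its log2 difference was -0.82 (SE 0.42, 95% interval -1.75 to 0.11, limma adjusted p = 0.963). COL22A1 was the 1 member lower without overlap, against 8.68% of loci, and 0 were higher without overlap, against 2.19%. The filter limit of COL22A1 holds for this count as well. The log2 difference was above 0 for 12 of 19 members and 34.2% of loci, and COL6A2 differed by 0.44 (SE 0.29, limma adjusted p = 0.963). The COL6A2 estimate was 0.16 without Wutou gluteal replicate 2 and 0.77 without Wutou gluteal replicate 3.

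COL22A1, a chain of the myotendinous junction, stood at 0.166, 0.270 and 0.0274 FPKM in Wutou gluteal, 0.0277, 0.0667 and 0.0638 in Wutou longissimus, 1.67, 0.333 and 0.731 in Sanfen gluteal and 0.0353, 1.13 and 1.74 in Sanfen longissimus libraries. It passed the filter through 3 Sanfen libraries alone, so it had to differ in that direction and its test is no support. COL11A1, a minor fibrillar chain that was not tested, stood at 0.0160, 0.0285 and 0.0154 FPKM in Wutou gluteal, 0.0172, 0.0161 and 0.00747 in Wutou longissimus, 0.744, 0.0560 and 0.0829 in Sanfen gluteal and 0.0183, 0.200 and 0.647 in Sanfen longissimus libraries. The same 2 libraries, Sanfen gluteal replicate 1 and Sanfen longissimus replicate 3, were highest for COL12A1, COL22A1 and COL11A1. COL11A1 was added after its values were seen. COL14A1 did not follow them. It was highest in Sanfen longissimus replicate 1, at 9.67 FPKM, and stood at 5.70 and 2.85 FPKM in those 2 libraries.

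Sanfen gluteal replicate 1 and Sanfen longissimus replicate 3 also held the highest summed level of the tendon and cartilage markers, of which 9 of 10 listed were found. The sum ranged from 28.2 to 54.9 FPKM in Wutou gluteal, 29.6 to 48.8 in Wutou longissimus, 41.2 to 151 in Sanfen gluteal and 49.2 to 115 in Sanfen longissimus libraries. Of the 10 markers, 4 were tested, MKX, CHAD, ACAN and PRG4 stayed below 1 FPKM in all libraries, and SCX was not found under that name and is not in the sum. TNMD, a membrane protein of tendon cells, stood at 1.77 FPKM in Sanfen gluteal replicate 1 and 1.14 FPKM in Sanfen longissimus replicate 3. It reached 1 FPKM in too few libraries to be tested and is given for these libraries only. FMOD, a proteoglycan that binds tendon fibrils, stood at 1.89, 2.23 and 1.63 FPKM in Wutou gluteal, 1.97, 1.03 and 1.12 in Wutou longissimus, 9.18, 3.28 and 3.78 in Sanfen gluteal and 7.34, 8.86 and 17.7 in Sanfen longissimus libraries. FMOD was lower in every Wutou library than in any Sanfen library, with a log2 difference of -1.67 averaged over muscles (SE 0.25, limma adjusted p = 0.159). Of the 4 tested markers, FMOD, THBS4 and COMP were lower in Wutou and CILP, a cartilage matrix protein, was higher. All 4 had an unadjusted p under 0.05, against 8.26% of all loci, and none passed adjustment. COMP passed the filter through Sanfen libraries alone, so it had to be lower in Wutou and its test is no support. CILP stood at 9.21, 19.9 and 7.16 FPKM in Wutou gluteal, 8.67, 20.1 and 13.5 in Wutou longissimus, 6.34, 8.35 and 5.83 in Sanfen gluteal and 13.8, 2.27 and 6.62 in Sanfen longissimus libraries, with a log2 difference of 0.82 (SE 0.36, limma adjusted p = 0.590). Without these 2 libraries, an alternative chosen after seeing the data, COL12A1 differed by -1.38 in longissimus (limma adjusted p = 0.291), by -0.22 in gluteal and by -0.80 averaged over muscles (limma adjusted p = 0.516), and COL22A1 no longer passed the filter. Over all alternatives the limma adjusted p of COL12A1 ran from 0.0935 to 1 in longissimus, with the lowest value without Sanfen gluteal replicate 1, and from 0.278 to 0.793 averaged over muscles. Without Sanfen gluteal replicate 1 alone the gluteal difference of COL12A1 was also -0.22. The part of tendon tissue in these differences was not tested.

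**Figure D4:**
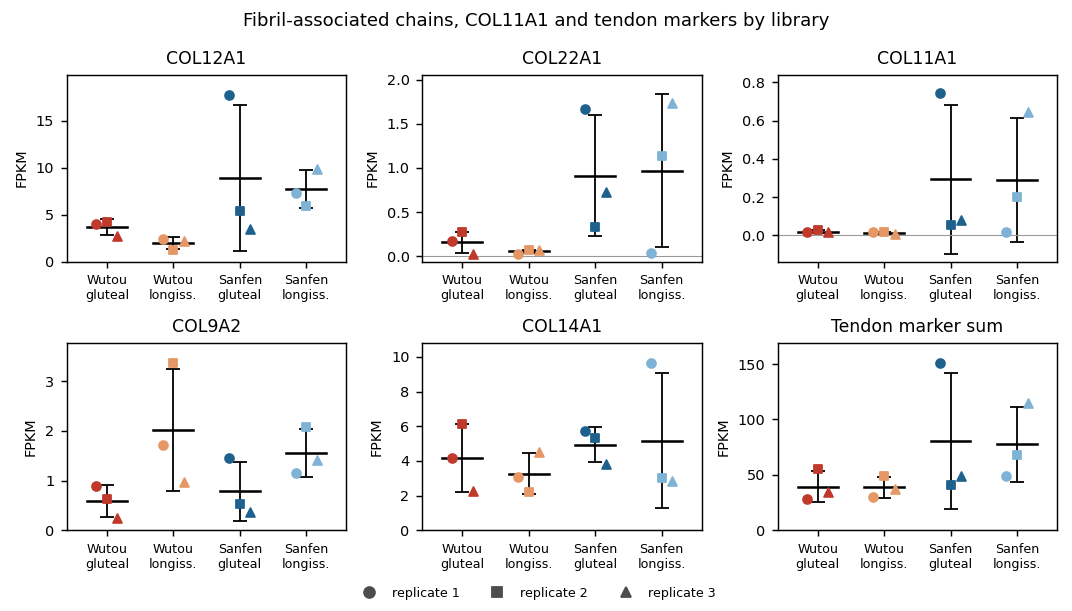
FPKM in each library (points), with group mean and SD of 3 libraries, of collagen genes and markers known from tendon and the myotendinous junction, for Wutou gluteal, Wutou longissimus, Sanfen gluteal and Sanfen longissimus muscle. The label longiss. stands for longissimus dorsi. COL12A1 reaches 17.8 FPKM in Sanfen gluteal replicate 1, against 4.25 FPKM in the highest Wutou library.

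The second comparison asked whether the muscles differ. Averaged over strains, 0 of 19 members passed (0% of loci did) and 1 had an unadjusted p under 0.05, against 6.56% of loci. That member was COL9A2, with a log2 difference of -0.71 between gluteal and longissimus muscle (SE 0.22, 95% interval -1.18 to -0.23, limma adjusted p = 0.745). Among gluteal libraries only Sanfen gluteal replicate 1, at 1.46 FPKM, reached 1 FPKM for COL9A2. It thus passed the filter through longissimus libraries, which favoured this direction, and its test is no support. In 5 of 6 gluteal libraries COL9A2 lay below every longissimus library. The log2 difference was above 0 for 17 of 19 members and 65.9% of loci, with medians of 0.12 over the members and 0.07 over all loci. Here too the all-loci median depended on scaling, at -0.013 under median-of-ratios rescaling and 0.0049 under quantile normalization. Of the 9 chains that averaged at least 10 FPKM, COL21A1 had an estimate slightly larger than its error, 0.18 (SE 0.17). The other 8 lay within their errors, at 0.18 (SE 0.33) for COL3A1, 0.18 (SE 0.20) for COL6A2, 0.12 (SE 0.20) for COL6A3, 0.08 (SE 0.12) for COL4A1, 0.07 (SE 0.18) for COL15A1, 0.07 (SE 0.33) for COL1A2, 0.06 (SE 0.41) for COL1A1 and -0.13 (SE 0.16) for COL6A1.

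In Wutou, gluteal against longissimus, 0 of 19 members passed (0% of loci did), and 1 had an unadjusted p under 0.05, against 5.68% of loci. COL9A2 averaged 0.588 ± 0.329 FPKM in gluteal and 2.01 ± 1.23 FPKM in longissimus libraries (SD, n = 3 each), with a log2 difference of -0.87 (SE 0.31, 95% interval -1.54 to -0.20, limma adjusted p = 0.870). It was the 1 member lower without overlap, against 4.18% of loci. No Wutou gluteal library reached 1 FPKM for COL9A2, so the limit set by the filter holds here too. COL12A1 was the 1 member higher without overlap, against 8.7% of loci, with a log2 difference of 0.67 (SE 0.42, limma adjusted p = 0.902). The log2 difference was above 0 for 16 of 19 members and 58.6% of loci. COL1A1 differed by 0.54 (SE 0.57, 95% interval -0.72 to 1.79). Leaving out 1 library, this COL1A1 estimate ran from 0.017 without Wutou gluteal replicate 2 to 1.33 without Wutou gluteal replicate 3.

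In Sanfen, gluteal against longissimus, 0 of 19 members passed (0.0242% of loci did) and 0 had an unadjusted p under 0.05, against 3.57% of loci. No member was higher or lower without overlap (0 and 0, against 6.27% and 1.27% of loci), and the log2 difference was above 0 for 14 of 19 members and 67.6% of loci. COL9A2 averaged 0.784 ± 0.588 FPKM in gluteal and 1.55 ± 0.481 FPKM in longissimus libraries (SD, n = 3 each), a log2 difference of -0.55 (SE 0.31). COL18A1 differed by 0.32 (SE 0.20) and COL5A3 by 0.25 (SE 0.23). The difference between the strains in the muscle effect was tested as an interaction, in which 0 of 19 members passed (0.00806% of loci did) and 0 had an unadjusted p under 0.05, against 2.6% of loci. The interaction estimate was above 0 for 11 of 19 members and 45.4% of loci, and it was 0.73 (SE 0.60) for COL12A1, 0.96 (SE 0.81) for COL1A1 and -0.30 (SE 0.36) for COL15A1. Leaving out 1 library, the interaction estimate ran from 0.31 to 1.33 for COL12A1, with the highest value without Sanfen gluteal replicate 1 (limma adjusted p = 0.996). For COL1A1 it ran from 0.44 without Wutou gluteal replicate 2 to 1.75 without Wutou gluteal replicate 3.

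**Figure D5:**
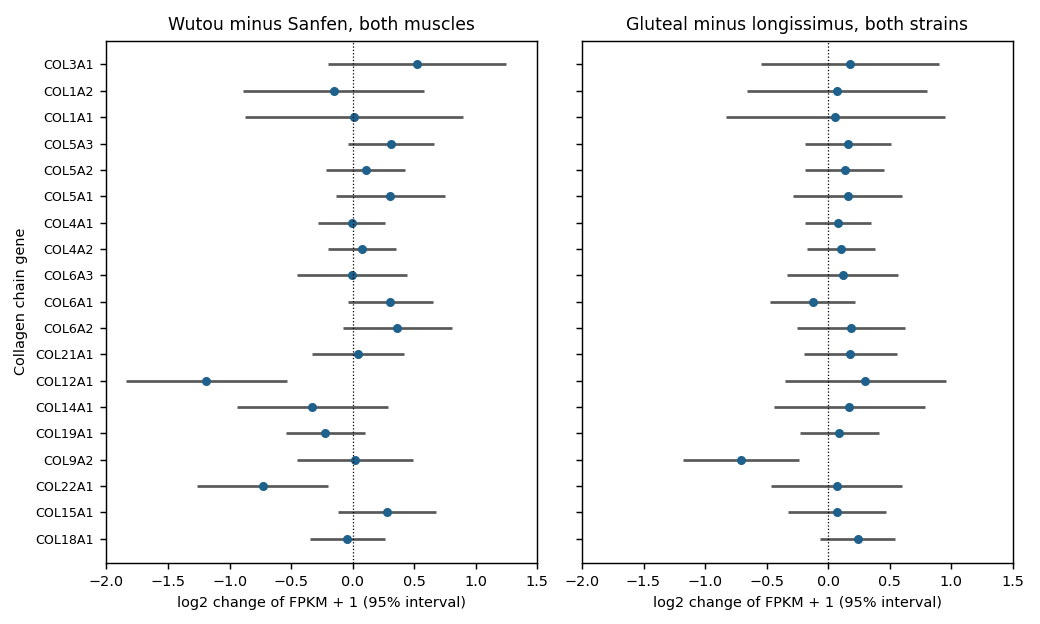
Log2 difference of FPKM + 1 with its 95% interval for the 19 tested collagen genes, Wutou minus Sanfen averaged over muscles and gluteal minus longissimus averaged over strains. The intervals of COL12A1 and COL22A1 lie below 0 between strains and that of COL9A2 below 0 between muscles, before adjustment over 12408 loci. COL22A1 passed the filter through Sanfen libraries alone and COL9A2 through longissimus libraries, so their tests are no support.

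Genes that make, modify and bind collagen were read from 7 lists, and none of their tested genes passed an adjusted p of 0.05 in either averaged comparison. Between strains, 35.3% of all loci had a log2 difference above 0, so most loci were lower in Wutou in the FPKM as deposited. The median over all loci did not keep this sign under either rescaling given above. Of 20 genes of hydroxylation, folding and secretion, 10 were higher and 10 lower in Wutou than in Sanfen (median -0.01), led by COLGALT1, which adds galactose to collagen lysines, at 0.20 (SE 0.09, limma adjusted p = 0.590). Of 10 genes of procollagen processing and cross-linking, 5 were higher and 5 lower (median 0.02), and LOX, the cross-linking lysyl oxidase, differed by -0.45 (SE 0.22). Of 10 genes of collagen breakdown, 2 were higher and 8 lower (median -0.25), led by TIMP2, a metalloproteinase inhibitor, at -0.55 (SE 0.18). The 7 receptors had a median of -0.04 and the 12 laminins, nidogens and perlecan a median of -0.01. Of 15 TGF-beta signalling genes, 5 were higher and 10 lower (median -0.21), led by LTBP2, at -0.42 (SE 0.13).

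Fibril-binding proteoglycans and glycoproteins stood lower in Wutou for 18 of 20 genes (median -0.40, against -0.07 over all loci), where 35.3% of all loci were higher in Wutou. An unadjusted p under 0.05 was reached by 10 of the 20, against 8.26% of all loci. Within gluteal muscle alone it was reached by 1 of the 20, against 4.86% of loci. Within longissimus muscle it was reached by 6 of the 20, against 5.52% of loci. The summed list was highest in Sanfen gluteal replicate 1, at 361 FPKM, followed by Sanfen longissimus replicate 1, at 265 FPKM. COMP, one of the 10, reached 1 FPKM in 3 Sanfen libraries and in no Wutou library, so it passed the filter only through Sanfen and had to be lower in Wutou. FMOD, THBS4 and TNC led them, and THBS4 differed by -1.10 (SE 0.37) and TNC by -0.61 (SE 0.21), each with a limma adjusted p of 0.517. FMOD, COMP and THBS4 also stand on the tendon and cartilage list, so these lists are not separate evidence. Between gluteal and longissimus muscle the medians of the 7 lists ran close to that of all loci, from -0.03 for processing and cross-linking to 0.13 for the receptors, and TNC, a glycoprotein of tendon and injured muscle, differed by 0.68 (SE 0.21, limma adjusted p = 0.745).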

How the data were processed

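RNA from 12 donkey muscle libraries was measured by RNA-seq. The deposited table gives FPKM per assembled locus for each library, per the file headers. Cutadapt, Bowtie2 and TopHat2 are named per the submitters' processing notes, and the genome build, quantifier and strand setting are not given in the sources used here. From these values log2(FPKM + 1) was computed for the 12408 of 27084 loci with at least 1 FPKM in at least 3 libraries. A model with 4 group means (8 residual degrees of freedom) was fitted with limma 3.58.1 in R 4.3.3, with a mean-variance trend and Benjamini-Hochberg adjustment over all loci kept, for 7 comparisons. The fit was tested on simulated data. The collagen members and the gene lists were chosen with earlier results of these data known. Genes named were the highest of each structural class by mean FPKM and the 3 tested members with the smallest p in each comparison, and for other lists at most 5 genes with the smallest p. Other members were accounted for by their means. COL11A1 and COL5A1 were given by library, and TNMD only for the libraries highest for tendon markers. These genes fell outside the rule and were added after their values were seen.

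Replicate numbers were checked as pairs of muscles. In Sanfen, same-numbered libraries deviated together from their group means (correlations across loci of 0.246, 0.110 and 0.158, each above 0.1) and were taken as pairs on that basis, since the labels do not state it. In Wutou they did not meet this rule. The main fit held no replicate block in either strain, so libraries of the same donkey were treated as independent. Pairing entered only the alternative fits with a block. Alternatives were another pseudocount, filters, scalings, array weights, a replicate block, summed loci of one name, the compared libraries alone, each library left out and the 2 libraries highest for tendon markers left out.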

Additional observations from a re-analysis of the deposited data

How the results depend on the processing

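In 155 alternative fits of the count of collagens called over the 7 comparisons, 0 fits called a collagen. With the replicate block, COL9A2 between gluteal and longissimus in Wutou had an adjusted p of 0.659 (block as a fixed term) and 0.558 (as a random term) by limma. Between strains, averaged over muscles, the random block raised the limma adjusted p of COL12A1 from 0.455 to 0.793. That of COL22A1 rose from 0.517 to 0.793. The block changed no call. In Wutou the same-numbered correlations were 0.182, 0.165 and 0.0711, and each library correlated best with its own number. The number of collagens at an unadjusted p under 0.05 between strains, averaged over muscles, ran from 1 to 9, with 9 under array weights. This number was 6 without the filter, where all 42 members were tested. It was also 6 under median-of-ratios rescaling or with replicate 3 of Wutou gluteal left out. It was 1 when replicate 1 of Sanfen gluteal or replicate 3 of Sanfen longissimus was left out. Within gluteal it ran from 0 to 4, with 4 without Wutou gluteal replicate 3, and within longissimus from 1 to 5, with 5 under array weights. The share of all loci under these settings was not taken. These counts therefore describe the settings and are no result about collagens.

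Small estimates changed sign. Between gluteal and longissimus, averaged over strains, COL4A1 was -0.039 and COL15A1 -0.044 under median-of-ratios rescaling, and COL6A3 was -0.023 and COL15A1 -0.11 without the 2 libraries highest for tendon markers. Between strains, COL4A1 was 0.10 and COL6A3 0.11 under median-of-ratios rescaling, COL4A1 0.019 and COL6A3 0.034 under quantile normalization, and COL6A3 0.11 under array weights. The interaction of COL15A1 was 0.063 without the 2 libraries. Leaving out 1 library at a time, the muscle estimates ran from -0.028 to 0.42 for COL3A1, -0.056 to 0.15 for COL15A1 and -0.016 to 0.24 for COL6A3, and the strain estimates from -0.081 to 0.039 for COL4A1, -0.14 to 0.12 for COL6A3 and -0.053 to 0.14 for COL21A1. The cause was not tested. Depth is unknown, so low FPKM values carry no counting error here.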
